A study of Mus musculus with 6 samples.

Results

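Red blood cells are made in bone marrow, and a whole femur carries that marrow with it. The genes described here are 36 listed genes of the erythroid line: globins with their chaperone, enzymes of haem synthesis, importers of iron and glycine, proteins of the membrane skeleton, blood group and other surface proteins, regulators, and red cell enzymes and transporters. They were taken from the expression tables by gene symbol, out of 55484 genes in the tables and 15508 genes that the authors tested. Of the 36 genes, 35 were found and 33 were tested. Hba-a1 and Hbb-bs carried the status HIDATA, which Cuffdiff gives to a locus with too many fragments, and have no estimate in 1 or both groups. Ahsp, the chaperone of free alpha globin, was not analysed here.

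RNA came from the femurs of wild-type C57BL/6 males aged 12 weeks, all on normal chow and housed singly for 6 weeks. The wheel-running group, ND/WCR in the labels (n = 3 mice), had a wheel in the cage that the mice could use at will. The sedentary group, ND/SED in the labels (n = 3 mice), lived in cages with no wheel. The authors deposited 1 expression value per group, in FPKM (fragments counted relative to transcript length and library size), with a lower and an upper bound whose confidence level is not stated. Values of single mice were not used here, so no spread between mice can be given, and every p and q below is from the authors' deposited table. A gene was called where that q was under 0.05. Low FPKM values were split into 3 steps per group, a number set in advance, to estimate an effective depth in fragments. The steps gave 17400000, 17200000 and 13800000 in the wheel-running group and 16500000, 14600000 and 14300000 in the sedentary group. Values far above the lowest step were left out, so a much shallower library could not have been seen.

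Erythroblasts build the haem ring in and outside the mitochondria, and iron is put into it at the last step. They join haem to alpha and beta globin chains to form haemoglobin. As they mature they lay down a spectrin and ankyrin skeleton under the membrane, and they do so under transcription factors such as GATA1, TAL1 and KLF1 and under erythropoietin. In bulk bone, fewer cells of a type and less RNA per cell cannot be told apart.

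The adult globins come as near-identical pairs, which bears on how their fragments can be assigned. In the GRCm38 genome with GENCODE vM21 annotation, the coding sequences of Hba-a1 and Hba-a2 are 429 bases long and differ by C381T, with Hba-a1 named first. Those of Hbb-bs and Hbb-bt are 444 bases long and differ by C417T, with Hbb-bs named first. Positions count from 1 at the first base of the start codon, and neither change alters the amino acid. The windows of 41 coding bases around each difference are shown because they hold the only base that separates the partners' coding sequences, given in capitals; they lie at chr11:32284323-32284363 and chr11:32297140-32297180 on the forward strand and at chr7:103826672-103826712 and chr7:103812663-103812703 on the reverse strand.
Hba-a1: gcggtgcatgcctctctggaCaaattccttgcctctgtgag
Hba-a2: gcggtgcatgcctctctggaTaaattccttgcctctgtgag
Hbb-bs: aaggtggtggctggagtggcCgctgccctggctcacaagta
Hbb-bt: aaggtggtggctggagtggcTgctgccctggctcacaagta
Over the whole annotated transcripts, untranslated ends included, 74.5% of the 100-base windows of Hba-a2 were found unchanged in Hba-a1, and 56.5% of those of Hba-a1 in Hba-a2. The annotated Hba-a1 transcript has 196 bases before its start codon, and that of Hba-a2 has 35. For the beta pair, 54.8% of the windows of Hbb-bt were found in Hbb-bs and 62.6% of those of Hbb-bs in Hbb-bt. The labels and file headers do not say how fragments that match both partners were shared out, so each globin's FPKM is uncertain for that reason.

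A second kind of sequence sits in the members that handle iron. Iron regulatory proteins bind a short RNA stem-loop, the iron-responsive element, and are known to block translation from one in the 5′ untranslated region and to protect the transcript from decay through those in the 3′ untranslated region. Transcripts were searched on the sense strand for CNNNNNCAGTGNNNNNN with 5 paired stem bases, G paired with U included, around a loop of 6 bases. Of 35 members searched, matches are reported for Alas2 and Tfrc. Any match in Fech was left out of the member count. The background, 294 of 21901 protein-coding genes (1.34%), had no such omission, so it is not like for like with the member count. Alas2 had 1 in its 5′ untranslated region at chrX:150547464-150547480, and Tfrc had 4 in its 3′ untranslated region at chr16:32631225-32631241, chr16:32631604-32631620, chr16:32631669-32631685 and chr16:32631716-32631732, all on the forward strand of GRCm38. The loop is in capitals. In lower case are the first C of the pattern, which was not required to pair, and the 5 stem bases on each side. Sequences follow the order of those positions.
Alas2: cgtcctCAGTGCagggc
Tfrc 1: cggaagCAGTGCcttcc
Tfrc 2: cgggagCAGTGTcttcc
Tfrc 3: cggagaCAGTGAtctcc
Tfrc 4: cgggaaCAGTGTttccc
The matches are a description of letters. No binding was measured.

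The erythroid genes were at closely similar levels in wheel-running and sedentary femurs. None of the 33 tested members was called higher or lower, where the authors' deposited table called 146 of 15508 tested genes (0.941%), 69 of them higher (0.445%) and 77 lower (0.497%) in wheel-running bone. By Cuffdiff's unadjusted p, 0 of the 33 fell under 0.05, against 5.65% of all tested genes, and 0 had intervals apart between the groups, against 0.574%. With so few calls in the whole table, a count of 0 among 33 genes is near the background and is not a result particular to them. Among the 33 tested members the lowest p in the authors' deposited table was 0.0720, for Tal1 with q = 0.984, and the other 32 had q = 0.9997.

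The sizes say more than the calls. Log2 folds were formed on values of FPKM + 0.1, with the wheel-running group on top. Over the members they ran between -0.24 (Tfrc) and 0.29 (Tspo2) with a median of 0.01, beside a median of -0.01 over all tested genes and of -0.04 over the 2568 tested genes with at least 40 FPKM in a group, a background added after the data had been seen. Of the 33, 19 were above 0 (57.6%), against 48.2% of all tested genes and 36.6% of those with at least 40 FPKM. With the groups rescaled to equal total FPKM, 26 of the 33 were above 0 (78.8%), against 59.3% of all tested genes and 52.6% of those with at least 40 FPKM, so the sign of such small folds depends on the scaling. Within 0.1 of 0 lay 23 members (69.7%), and within 0.2 lay 31 (93.9%). Over all tested genes these shares were 45.1% and 69.9%, but the members are far more abundant than most genes. Among the tested genes with at least 40 FPKM they were 60.6% and 87.2%. The smallest fold called anywhere in the table was 0.38 in size, outside the range of every member.

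**Figure D1:**
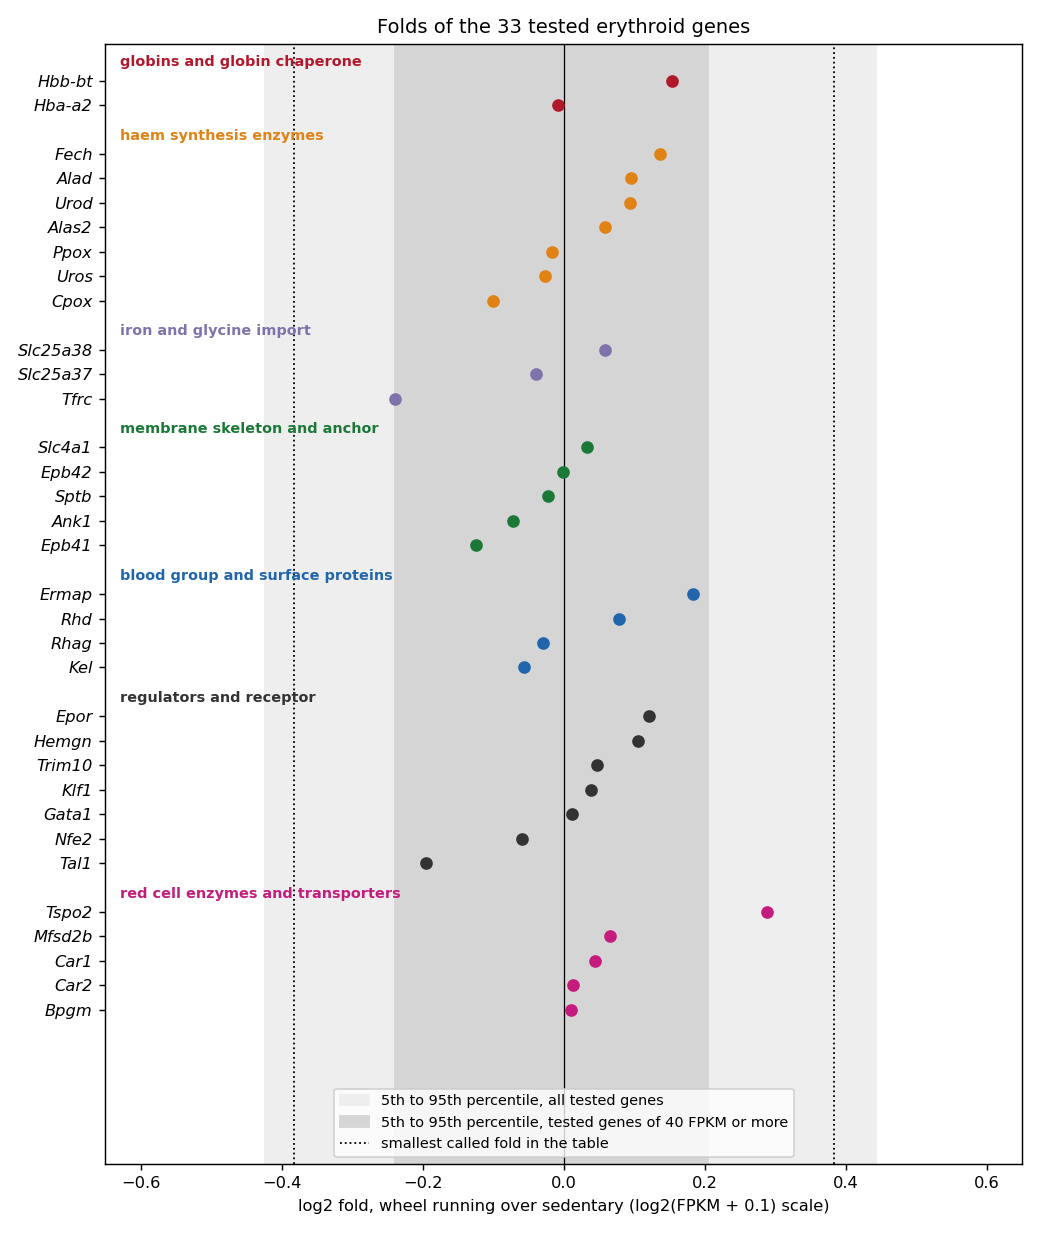
Log2 fold of each tested erythroid gene (x axis, wheel running over sedentary, log2(FPKM + 0.1) scale) by role (rows), with shaded bands for the 5th to 95th percentile of all tested genes and of tested genes with at least 40 FPKM, and dotted lines at the smallest called fold. All 33 points lie inside the dotted lines at 0.38, and Tfrc at -0.24 and Tspo2 at 0.29 are the outermost.

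Precision set what could have been seen. For 30 of the 33 members the authors' interval reached less than 35% of the value to either side. Its median half-width was 22.0% in the wheel-running group and 21.7% in the sedentary group. Uros, Kel and Tspo2 were the wider exceptions, and Tspo2 had the widest, at 64.5% in wheel-running and 72.9% in sedentary bone. Each of the 33 group values lay inside the other group's interval. Setting the bounds against each other in the least favourable way gave median limits of -0.63 and 0.65 on the log2 fold, so a change of moderate size in a single member is not excluded by the deposited intervals.

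The order of the members by level was nearly the same in both groups. In wheel-running and in sedentary bone alike the 5 highest tested members were Hbb-bt, Hba-a2, Car2, Alas2 and Slc4a1. Of the 33 genes, 19 held the same rank, and none moved by more than 2 places. The interval of Hbb-bt lay above that of Hba-a2 and that of Hba-a2 above that of Car2 in both groups, while the intervals of Car2 and Alas2 overlapped each other, as did those of Alas2 and Slc4a1. Their median member stood at percentile 95.9 of all tested genes by level, and only Tspo2, at 26.1, stood below 85.6. Summed FPKM over the 33 members was 13360 in wheel-running and 12824 in sedentary bone, or 2.32% and 2.16% of all FPKM without the HIDATA genes; these sums leave out the most abundant globins.

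**Figure D2:**
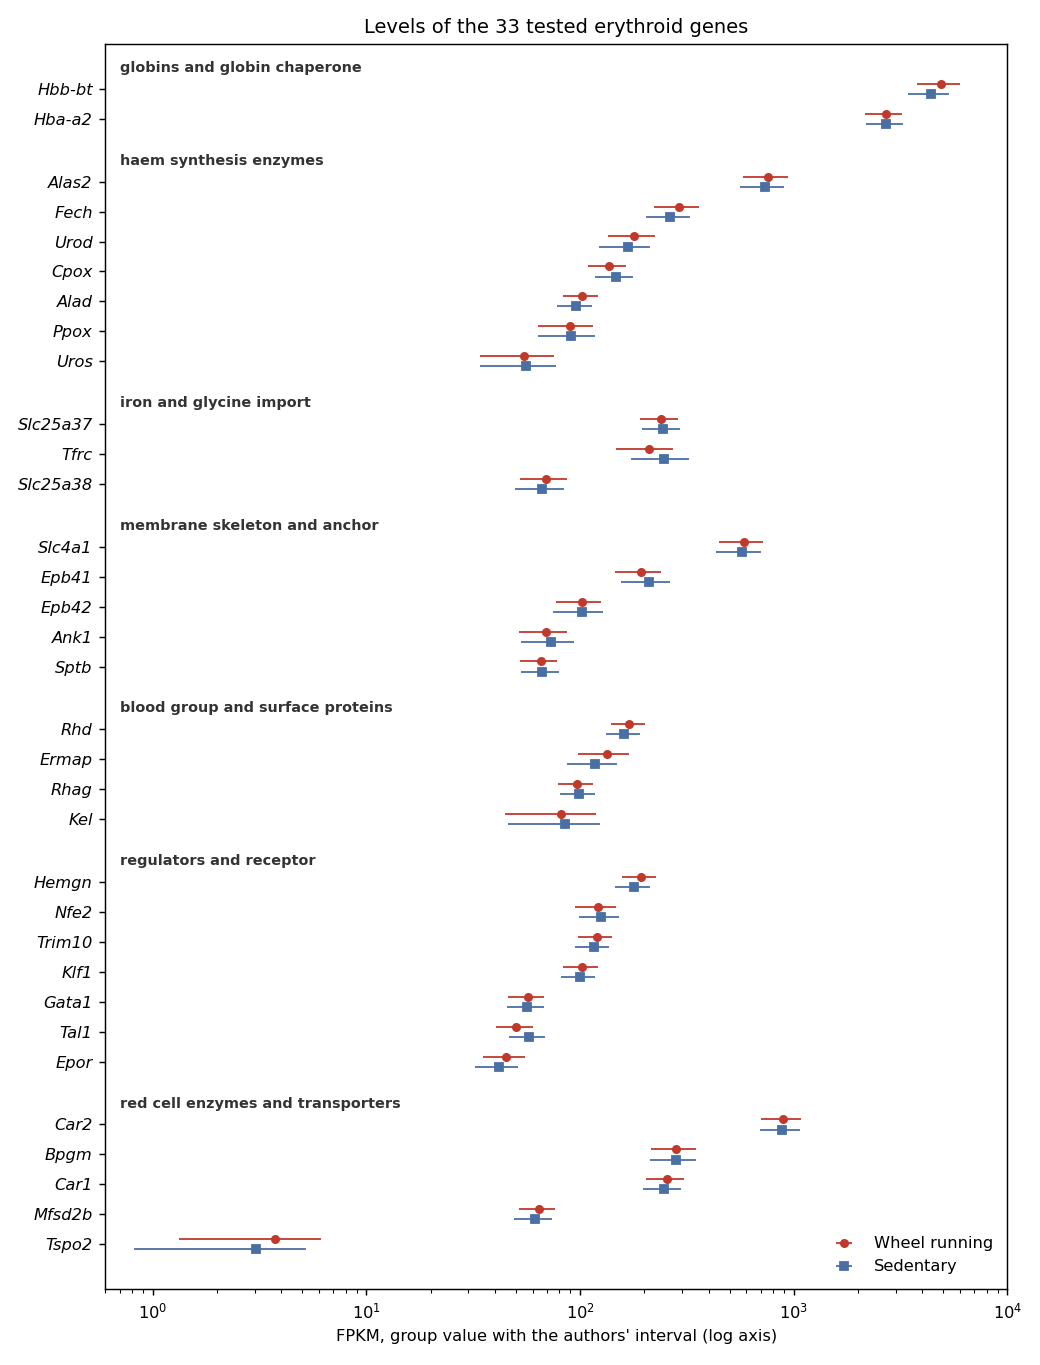
FPKM of each tested erythroid gene (log x axis) by role, as a red circle for wheel-running and a blue square for sedentary bone, with the authors' interval as a line. The paired intervals overlap in every row, and the levels span from Tspo2, at 3.72 and 3.03 FPKM, to Hbb-bt, at 4870 and 4381 FPKM.

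Among the globins, neither of the tested pair was called. Hbb-bt, a beta globin gene at chr7:103812524-103813996, had 4870 FPKM (interval 3777 to 5962) in wheel-running bone and 4381 FPKM (3431 to 5331) in sedentary bone. Its log2 fold was 0.15, and the authors' deposited table gave p = 0.234 and q = 0.9997. Hba-a2, an alpha globin gene at chr11:32296489-32297298, had 2689 FPKM (2163 to 3214) in wheel-running bone and 2704 FPKM (2180 to 3229) in sedentary bone, a log2 fold of -0.01 that was above 0 with equal total FPKM and with an equal upper quartile. Both values of each gene lay within the partner group's interval. Hba-a1 is listed at 0 with no estimate in wheel-running bone and at 11662 FPKM (8458 to 14866) in sedentary bone, and Hbb-bs is listed at 0 with no estimate in both. These zeros are a status of the table and not a level, and no fold was formed from them. Neither the sum of the alpha and beta chains nor their balance could therefore be compared between the groups.

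Haem synthesis begins with ALAS2, the erythroid enzyme that joins glycine to succinyl-CoA and sets the pace of the path. Alas2, at chrX:150547375-150570638 and carrying the 5′ stem-loop shown above, had 760.5 FPKM (581 to 940) in wheel-running bone and 730.8 FPKM (561 to 900) in sedentary bone. Its log2 fold was 0.06, with p = 0.640 and q = 0.9997 in the authors' deposited table. It was the most expressed of the 7 listed enzymes in both groups. Its gene overlaps the neighbour Apex2 on the opposite strand, so some fragments could belong to either. Apex2 had 5.72 FPKM in wheel-running and 5.27 FPKM in sedentary bone.

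Other listed enzymes stood well below that level. Alad, which condenses the product of ALAS2 into porphobilinogen, had 102 FPKM in wheel-running and 95.5 FPKM in sedentary bone. Uros, which closes the ring as uroporphyrinogen III, had 54.6 FPKM in wheel-running and 55.6 FPKM in sedentary bone, the lowest level of the 7 enzymes. Urod, which trims the side chains of the ring, had 179 FPKM in wheel-running and 167 FPKM in sedentary bone. The log2 folds of these 3 genes were 0.10, -0.03 and 0.09.

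The last steps take place in the mitochondrion. Cpox, the coproporphyrinogen oxidase, had 137 FPKM in wheel-running and 146 FPKM in sedentary bone, a log2 fold of -0.10. Ppox, the protoporphyrinogen oxidase, had 89.3 FPKM in wheel-running and 90.3 FPKM in sedentary bone, a log2 fold of -0.02. Fech, the ferrochelatase that puts iron into the ring, had 291 FPKM in wheel-running and 265 FPKM in sedentary bone, a log2 fold of 0.14. So 4 of the 7 enzymes were above 0 and 3 below, with a median log2 fold of 0.06, while with equal total FPKM or an equal upper quartile 6 were above 0 and 1 below. The first and the last enzyme were the most abundant in both groups. Uros, Cpox and Ppox also overlap a coding gene each (Bccip, Gpr15 and B4galt3). These neighbours had 56.6, 0.338 and 23.5 FPKM in wheel-running bone, against 57.6, 0.261 and 20.4 FPKM in sedentary bone.

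**Figure D3:**
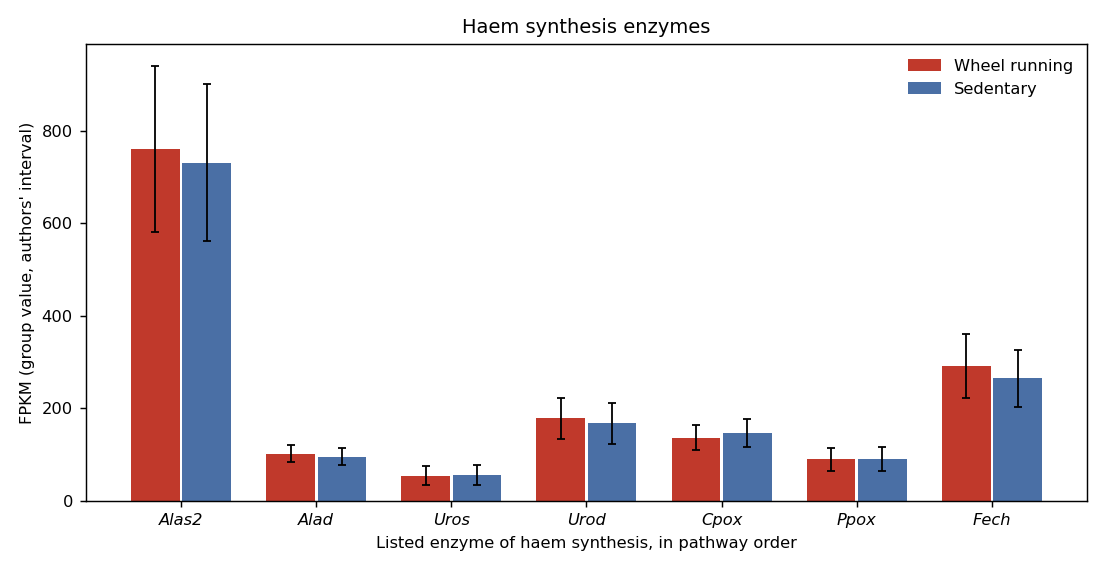
FPKM of the 7 haem synthesis members in the order of the reactions (x axis), with wheel-running values left of sedentary values and the authors' intervals as lines. The profile over the steps has its high points at Alas2 and Fech in both groups, and the paired intervals overlap at each step shown.

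Of the importers, Tfrc had the most negative log2 fold of all members. Tfrc encodes the transferrin receptor that brings iron into the cell, and its transcript carries the 4 stem-loops shown above. It had 209.9 FPKM (147 to 273) in wheel-running bone and 247.8 FPKM (174 to 322) in sedentary bone, a log2 fold of -0.24 with p = 0.155 in the authors' deposited table. Each value lay inside the other group's interval. Slc25a37, the mitoferrin that carries iron into the mitochondrion of erythroid cells, had 238 FPKM (190 to 286) in wheel-running bone and 244 FPKM (195.2 to 294) in sedentary bone, with a log2 fold of -0.04 and q = 0.9997 in the authors' deposited table. Slc25a38, the mitochondrial carrier that supplies glycine for haem, had 69.3 FPKM in wheel-running and 66.6 FPKM in sedentary bone, a log2 fold of 0.06. The 3 importers had a median log2 fold of -0.04, which became 0.0037 with equal total FPKM, and their summed FPKM was 517 in wheel-running and 559 in sedentary bone.

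The membrane skeleton genes had the smallest median size of log2 fold among the roles, at 0.03. Slc4a1, the anion exchanger that anchors the skeleton, lies at chr11:102348824-102366203 and had 582 FPKM (447 to 717) in wheel-running bone and 569 FPKM (434 to 704) in sedentary bone. Its log2 fold was 0.03, with q = 0.9997 in the authors' deposited table. Ank1, the ankyrin that ties this exchanger to spectrin, had 69.4 FPKM in wheel-running and 72.9 FPKM in sedentary bone, a log2 fold of -0.07. Epb42, a membrane protein that binds the exchanger and ankyrin, had 101.5 FPKM in wheel-running and 101.6 FPKM in sedentary bone, which are hardly apart.

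Beneath the anchor, Sptb, the erythroid beta spectrin, had 65.4 FPKM in wheel-running and 66.4 FPKM in sedentary bone, a log2 fold of -0.02. Epb41, the protein of the junction between spectrin and actin, had 192 FPKM in wheel-running and 210 FPKM in sedentary bone, a log2 fold of -0.12. In all, 1 of the 5 skeleton genes was above 0 and 4 below, with a median log2 fold of -0.02. With equal total FPKM or an equal upper quartile 3 were above 0 and 2 below, and the median turned to 0.0202 and 0.0058, so the skeleton genes have no direction that holds across scalings. Their summed FPKM was 1011 in wheel-running and 1020 in sedentary bone. Sptb and Epb41 overlap the coding genes Plekhg3 and Gm10300. These neighbours had 12.9 and 0.298 FPKM in wheel-running bone, against 14.7 and 0.238 FPKM in sedentary bone.

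Of the 4 blood group and surface proteins none was called. Rhd, the Rh protein, had 170.0 FPKM (139 to 200.9) in wheel-running bone and 161 FPKM (132 to 190) in sedentary bone, a log2 fold of 0.08 with q = 0.9997 in the authors' deposited table. Rhag, the ammonia channel that assembles with it, had 96.9 FPKM in wheel-running and 99.0 FPKM in sedentary bone, a log2 fold of -0.03 that became 0.0130 with equal total FPKM. For both partners of the Rh complex each group's value lay inside the other group's interval. Kel, the Kell surface peptidase, had 81.8 FPKM in wheel-running and 85.0 FPKM in sedentary bone, a log2 fold of -0.06. Ermap, an erythroid protein of the immunoglobulin superfamily, had 134 FPKM in wheel-running and 118 FPKM in sedentary bone, a log2 fold of 0.18. The median of these 4 log2 folds was 0.02.

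Among the regulators, the receptor comes first. Epor, the erythropoietin receptor, had 45.2 FPKM in wheel-running and 41.5 FPKM in sedentary bone, a log2 fold of 0.12. Gata1, the zinc finger factor at the head of the erythroid programme, had 56.9 FPKM in wheel-running and 56.5 FPKM in sedentary bone, a log2 fold of 0.01. Klf1, the factor that drives adult beta globin, had 102 FPKM in wheel-running and 99.4 FPKM in sedentary bone, a log2 fold of 0.04. None of these 3 was called.

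Tal1, which binds DNA in a complex with GATA1, had 50.1 FPKM (40.3 to 59.9) in wheel-running bone and 57.4 FPKM (46.4 to 68.4) in sedentary bone. Its log2 fold was -0.20, and its p of 0.0720 in the authors' deposited table was the only one of the 33 under 0.1. Nfe2, the partner of small Maf proteins at globin enhancers, had 121 FPKM in wheel-running and 126 FPKM in sedentary bone, a log2 fold of -0.06. Both Tal1 and Nfe2, like Gata1, are also transcribed in megakaryocytes, whose markers are given below.

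Hemgn, a nuclear protein of haematopoietic cells, was the most expressed regulator, with 192 FPKM (157 to 227) in wheel-running bone and 179 FPKM (146 to 211) in sedentary bone. Its log2 fold was 0.11, with q = 0.9997 in the authors' deposited table. Trim10, a RING finger protein of terminal erythroid differentiation, had 119.7 FPKM in wheel-running and 115.8 FPKM in sedentary bone, a log2 fold of 0.05. Of the 7 regulators, 5 were above 0 and 2 below, with a median log2 fold of 0.04.

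All 5 red cell enzymes and transporters were above 0, beside 48.2% of all tested genes, and none was called. Car2, a carbonic anhydrase, had 888 FPKM (701 to 1075) in wheel-running bone and 880.0 FPKM (694 to 1066) in sedentary bone, a log2 fold of 0.01 with q = 0.9997 in the authors' deposited table. Osteoclasts use the same enzyme to make acid, so its level in bone is not of erythroid cells alone. Car1, the other carbonic anhydrase of red cells, had 255 FPKM in wheel-running and 247 FPKM in sedentary bone, a log2 fold of 0.04.

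Bpgm makes the bisphosphoglycerate that loosens oxygen from haemoglobin. It had 282 FPKM in wheel-running and 280 FPKM in sedentary bone, a log2 fold of 0.01. Mfsd2b, which exports sphingosine phosphate from red cells and platelets, had 64.1 FPKM in wheel-running and 61.3 FPKM in sedentary bone, a log2 fold of 0.07. Tspo2, an erythroid relative of the mitochondrial translocator protein, had 3.72 FPKM (1.32 to 6.11) in wheel-running bone and 3.03 FPKM (0.820 to 5.23) in sedentary bone. The log2 fold of Tspo2, 0.29, was the highest of the members and came from the lowest level, with p = 0.451 in the authors' deposited table.

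**Figure D4:**
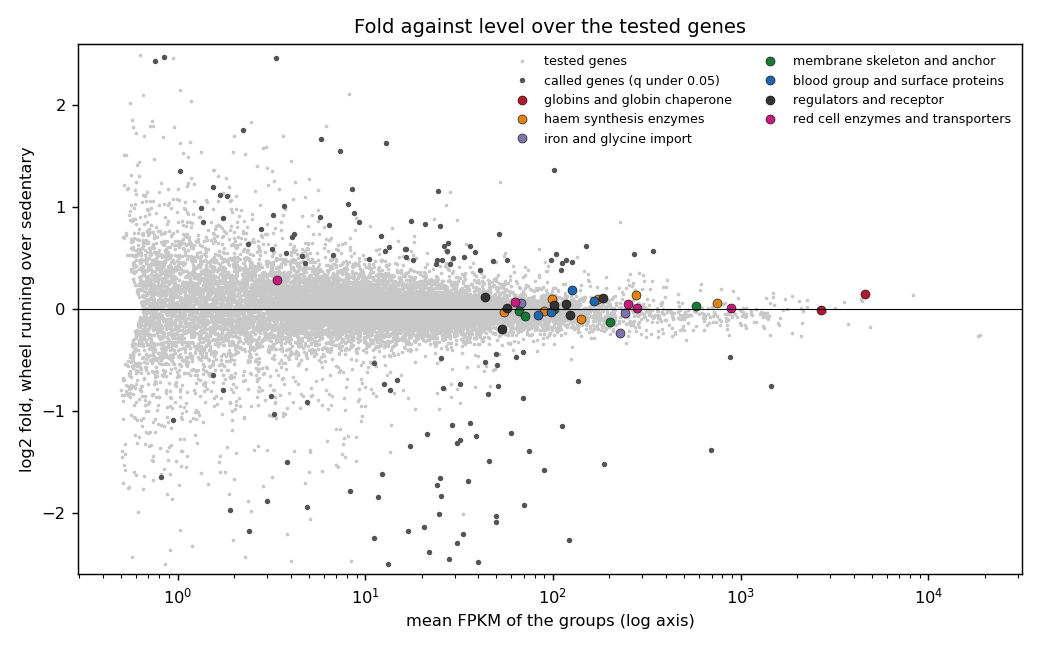
Log2 fold (y axis, wheel running over sedentary) against mean FPKM (log x axis), with tested genes in light grey, called genes in small dark points and the erythroid genes by role in large outlined points; genes with a mean under 0.5 FPKM or a fold beyond the axis are not drawn. The members sit at the abundant end, where the grey cloud is narrow, except Tspo2 at 3.72 FPKM in wheel-running and 3.03 FPKM in sedentary bone.

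The members lie on 16 chromosomes, with 7 on chromosome 4 and 2 on chromosome X. Promoters were read from RefSeq on GRCm38.p6 for 28 of the member genes, as 34 windows of 250 bases before the annotated start. Letters of the GATA motif were searched on either strand as AGATAA and as TGATAA, and with a final G as AGATAG and as TGATAG. They were in 17 of the 34 member windows and in 26.5% of 32851 windows of all genes. CACCC letters, the kind that KLF1 binds, were searched on either strand as CCACACCC and as CCACCC, and were in 44.1% of member windows and 30.1% of all. No searched pattern contains another, though matches can overlap. CCAAT was on either strand in 55.9% of member windows and 33.8% of all, and TATAA on the gene's strand in 7 member windows and 5255 of all. Over 197 aligned bases before the start the Hba-a1 and Hba-a2 promoters were identical (100%), while 118 of 199 bases (59.3%) matched between Hbb-bs and Hbb-bt. The RefSeq and GENCODE starts differ for some of these genes. For Hba-a1 the window ends at chr11:32283671, inside the GENCODE gene that begins at chr11:32283511. Matches describe the letters of these windows only.

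Beyond the members, 105 further genes of the same pathways were listed, of which 101 were tested. None was called, beside the 0.941% of all tested genes, and 51 were above 0 and 50 below, or 67 and 34 with equal total FPKM. By unadjusted p in the authors' deposited table, Hmox1 and Erfe were under 0.05, 2 of 101, against 5.65% of all tested genes. Hmox1, the haem oxygenase that breaks haem down and is abundant in macrophages that take up red cells, had 286.6 FPKM (234 to 339) in wheel-running bone and 225.8 FPKM (185 to 267) in sedentary bone. Its log2 fold was 0.34, with p = 0.00105 and q = 0.0890 in the authors' deposited table. Erfe, the erythroblast hormone that lowers hepcidin, had 0.953 FPKM (0 to 2.56) in wheel-running bone and 9.52 FPKM (0 to 22.4) in sedentary bone. The authors' deposited table gave it p = 0.00455 and q = 0.256, its intervals overlap and reach 0, and its gene overlaps Ilkap, which had 46.4 FPKM in wheel-running and 47.9 FPKM in sedentary bone.

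Abundant genes of the further lists follow, beside Hmox1 above. In haem handling Blvrb, a biliverdin reductase, had 300 FPKM in wheel-running and 294 FPKM in sedentary bone. In iron handling, the ferritin chains Ftl1 and Fth1 had 2113 and 1416 FPKM in wheel-running bone, against 1996 and 1317 FPKM in sedentary bone. The same stem-loop pattern was found in the 5′ untranslated regions of Ftl1, Fth1 and Slc40a1. Any match on chromosome 18, where Gypc lies, was left out here too. Slc40a1, the iron exporter ferroportin, named here for its stem-loop after its values had been seen, had 126 FPKM in wheel-running and 106 FPKM in sedentary bone, with p = 0.0530 in the authors' deposited table. The median log2 folds of the haem and iron lists were 0.02 (17 tested) and 0.01 (20 tested).

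For the membrane list, Cd24a and Bsg had 1017 and 403 FPKM in wheel-running bone, against 1047 and 412 FPKM in sedentary bone. For the regulator list, Lmo2, a bridge between TAL1 and GATA1, had 162 FPKM in wheel-running and 161 FPKM in sedentary bone, and Ikzf1 had 94.1 FPKM (0 to 209.7) in wheel-running and 97.9 FPKM (0 to 203.8) in sedentary bone, intervals that reach 0. Medians of both lists, over 20 and 22 tested genes, were -0.01 on the log2 scale and turned to 0.0371 and 0.0338 with equal total FPKM. Bnip3l, which clears mitochondria from reticulocytes, had 272 FPKM in wheel-running and 265 FPKM in sedentary bone. The 11 maturation genes had a median log2 fold of -0.00, or 0.0426 with equal total FPKM, and without rescaling lay within 0.2 of 0 without exception.

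The peroxide scavengers Gpx1 and Prdx2 led the antioxidant list, with 1971 and 575 FPKM in wheel-running bone, against 1806 and 563 FPKM in sedentary bone. That list of 9 had a median log2 fold of 0.03. Of 6 other globin genes, Hba-x, Hbb-y and Hbb-bh1, known from the embryo, and Hbb-bh2 were under 1 FPKM in both groups and not tested. The theta globins Hbq1b and Hbq1a had 33.9 and 7.15 FPKM in wheel-running bone, against 30.6 and 4.996 FPKM in sedentary bone, and neither was called; the median log2 fold of this pair was 0.33.

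Other cells of the femur did not all show levels as close. Of 9 markers of the macrophage of the erythroblastic island, the cell that nurses erythroblasts and clears their nuclei, the authors' deposited table called 2 higher in wheel-running bone and none lower, where 0.445% of all tested genes were called higher. Cd163, the receptor for haemoglobin bound to haptoglobin, had 28.0 FPKM in wheel-running and 20.01 FPKM in sedentary bone, a log2 fold of 0.48 with q = 0.0133 in the authors' deposited table. Cd5l had 32.7 FPKM in wheel-running and 24.0 FPKM in sedentary bone, a log2 fold of 0.44 with q = 0.0188 in the authors' deposited table. Vcam1, the most expressed of the list, had 213 FPKM in wheel-running and 171 FPKM in sedentary bone and was not called. The summed FPKM of the list was 593 in wheel-running and 518 in sedentary bone, with a median log2 fold of 0.19. Of the 9, 7 were above 0 and 2 below, or 9 and 0 with equal total FPKM. In the same list, C1qa, C1qb, Adgre1 and Spic, named after their values had been seen, had log2 folds of 0.05, 0.09, -0.00 and -0.02. Whether the cells behind these markers contribute to the level of Hmox1 was not tested.

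Blood cell lists leaned the other way. Over all tested genes, 0.497% were called lower in wheel-running bone. None of 12 neutrophil markers was above 0, and none was called, with S100a9 at 17115 FPKM in wheel-running and 20406 FPKM in sedentary bone and a list median of -0.17 on the log2 scale. The list summed to 46429 FPKM in wheel-running and 54481 FPKM in sedentary bone. Of 10 B lineage markers 9 were below 0 and none was called; Cd79a had 94.2 FPKM in wheel-running and 101 FPKM in sedentary bone, and the list median was -0.15. Its sum was 381 FPKM in wheel-running and 423 FPKM in sedentary bone. Of 10 megakaryocyte and platelet markers, Treml1 was called lower, with 0.717 FPKM in wheel-running and 3.10 FPKM in sedentary bone, while Ppbp, the most expressed, had 731 FPKM in wheel-running and 816 FPKM in sedentary bone. The list median was -0.10 and its sum 1534 FPKM in wheel-running and 1669 FPKM in sedentary bone. In the mast cell and basophil list 2 of 5 tested genes were called lower. These were Mcpt8, at 35.5 FPKM in wheel-running and 50.95 FPKM in sedentary bone, and Prss34, at 58.9 FPKM in wheel-running and 78.8 FPKM in sedentary bone, and the list median was -0.45 with a sum of 113 FPKM in wheel-running and 155 FPKM in sedentary bone. In the authors' deposited table q was 0.00718 for Treml1 and Mcpt8 and 0.0188 for Prss34. The differences between these lists and the erythroid members were not tested.

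Lists of bone, muscle and fat lay above 0. Over all tested genes, 0.445% were called higher in wheel-running bone. Of 10 osteocyte and osteoblast markers, Sost and Mepe were called higher, with 66.2 and 137 FPKM in wheel-running bone, against 47.4 and 98.4 FPKM in sedentary bone; Bglap, the most expressed, had 3184 FPKM in wheel-running and 3157 FPKM in sedentary bone. The list sum of 5893 FPKM in wheel-running and 5585 FPKM in sedentary bone shows the labelled tissue in both groups. Of 10 skeletal muscle markers, Myh1 and Myh2 were called higher, with 44.1 and 45.9 FPKM in wheel-running bone, against 28.6 and 31.1 FPKM in sedentary bone, and Tnnt3, the most expressed, had 445 FPKM in wheel-running and 366 FPKM in sedentary bone. The muscle list summed to 1825 FPKM in wheel-running and 1510 FPKM in sedentary bone. Of 8 tested adipocyte markers, Fabp4, Adipoq and Cfd were called higher, with 319, 55.8 and 64.8 FPKM in wheel-running bone, against 220, 40.2 and 39.0 FPKM in sedentary bone. The adipocyte list summed to 505 FPKM in wheel-running and 351 FPKM in sedentary bone. Median log2 folds were 0.24 for the bone cell, 0.28 for the muscle and 0.56 for the adipocyte list, and q was 0.00718 in the authors' deposited table for each of these called genes. None of 9 markers of the osteoclast, which also makes Car2, was called, with a list median of 0.08. Acp5, the most expressed, had 844 FPKM in wheel-running and 735 FPKM in sedentary bone. FPKM are relative to library size, so a larger share of one tissue can lower the others. The part of these lists in the erythroid values was not tested.

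**Figure D5:**
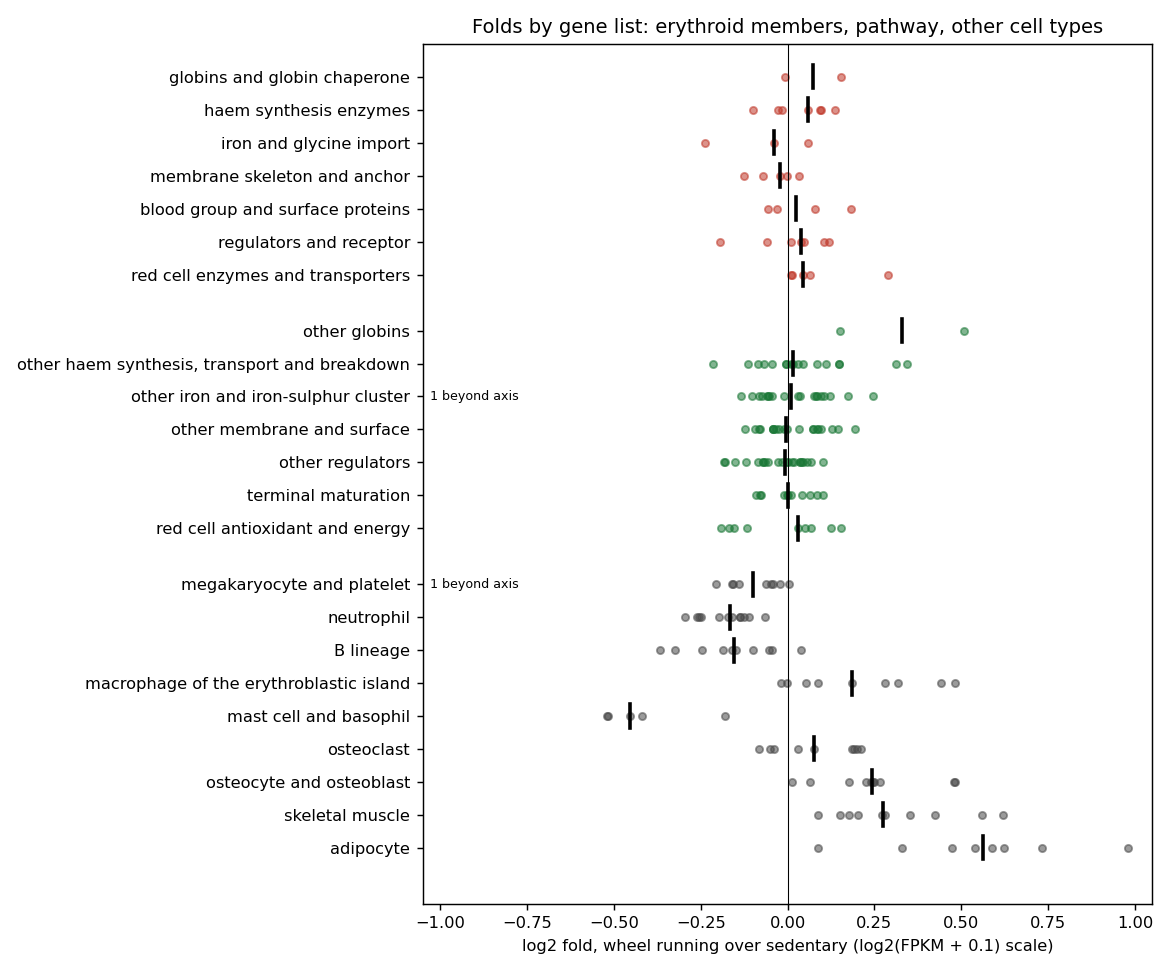
Log2 folds (x axis, wheel running over sedentary) of single genes as points and list medians as bars, for the erythroid roles, the further pathway lists and the marker lists of other cells; Erfe and Treml1 lie beyond the axis. Medians of the erythroid roles, without rescaling, lie between -0.04 and 0.07, those of neutrophil, B lineage and basophil lists below 0, and those of bone, muscle and fat lists above 0.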

How the data were processed

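TRIzol extraction of femoral bone gave RNA for directional libraries of polyadenylated transcripts, per the labels' protocols. Trimmomatic 0.39, HISAT2 2.2.1, SAMtools 1.10, Cufflinks 2.2.1 and build GRCm38 are named in the submitters' processing notes, without roles. Use of strand in counting: not given in the sources used here. The authors deposited, per gene, 1 FPKM per group with an interval, and a log2 fold, a test statistic (a score), a p-value and a q-value, in the columns of Cuffdiff per the file headers. The deposited tables held 0 columns of single libraries, so no test between mice was run here and the authors' q under 0.05 was the call. The deposited q differed from a Benjamini-Hochberg adjustment over the 15508 tested genes by at most 5.21e-07. Of 55484 genes, 39971 were NOTEST and 5 HIDATA; both were left out of tests. The pair of tables disagreed for 7 genes, none of them a member.

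Folds were recomputed as log2(FPKM + 0.1), wheel running over sedentary, which understates changes of low genes, and lists were described by counts and medians with no list test. The member list, the other lists and the rule for named genes were chosen with earlier results of these data known. By that rule every member is named; called genes, genes with unadjusted p under 0.05 and the most expressed genes are named from the other lists (2 per pathway list, 1 per marker list), except for 2 pathway genes that are not reported here. Gene IDs matched GENCODE vM21 for 55138 genes. Effective depth was estimated from 3 steps, a number set in advance, among low FPKM values, with transcript lengths shortened by 255 bases. The precision of a value is that of the authors' interval. The design text counts each replicate as 1 mouse. Python 3.11.15, pandas 2.3.3, numpy 2.4.6 and matplotlib 3.10.9 were used, and the scripts were tested on simulated data. Alternatives were other thresholds, pseudocounts, scalings, filters and member sets.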

Additional observations from a re-analysis of the deposited data

How the results depend on the processing

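No paired analysis was possible because each group has 1 pooled value; for the same reason the fits without each replicate and with the replicate number as a block were not run. The count of called members was 0 under all 6 alternatives tried (q under 0.01 or 0.1, unadjusted p under 0.05, intervals apart, a filter at 1 FPKM, a size filter). The settings with q under 0.01 and with the size filter are stricter than the main call, so they could only give 0. Over the further pathway genes the count of 0 became 1 at q under 0.1 (Hmox1) and 2 at unadjusted p under 0.05 (Hmox1 and Erfe). Of 99 rescaled folds of single members (33 genes, 3 scalings), 86 kept their direction and 13 changed sign; other pseudocounts and the second table could not change a sign. Each scaling shifts all folds alike, by 0.04 for equal total FPKM, 0.0075 for an equal median and 0.03 for an equal upper quartile. With equal totals, log2 folds became 0.0345 for Hba-a2, 0.0162 for Uros, 0.0264 for Ppox, 0.0037 for Slc25a37, 0.0202 for Sptb, 0.0414 for Epb42 and 0.0130 for Rhag. With an equal upper quartile they became 0.0201 for Hba-a2, 0.0018 for Uros, 0.0119 for Ppox, 0.0058 for Sptb and 0.0270 for Epb42, and with an equal median 0.0061 for Epb42. The median over all members ranged between 0.01 and 0.06. Role medians changed sign with equal totals for the importers (0.0037) and the skeleton (0.0202), with an equal upper quartile for the skeleton (0.0058), and without 1 member for the globins (-0.0083), the importers (0.0093) and the blood group genes (-0.0298). The background of genes with at least 40 FPKM, the set without members that overlap another coding gene (27 tested, median log2 fold 0.04) and the counts above and below 0 under each scaling were chosen after the data had been seen. The pooled values limit precision: no spread between mice is known, and the most abundant globins have no estimate.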
